A study of Mus musculus with 9 samples.

Results

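The 10 genes described here encode the enzymes that place and remove DNA methylation and the catalytic and core subunits of Polycomb repressive complex 2 (PRC2). They were picked by gene symbol from the 56691 genes of the deposited table, by a rule that uses no measured value, although earlier results of these data were known when the set was proposed: the DNA methyltransferases Dnmt1, Dnmt3a and Dnmt3b, the methylation cofactor Uhrf1, the TET enzymes Tet2 and Tet3, and the PRC2 genes Ezh1, Ezh2, Eed and Suz12. RNA was sequenced from RAW264.7 cells, a mouse macrophage line that forms osteoclasts, the bone-resorbing cells, when given the cytokine RANKL. The 9 libraries came from 3 groups of 3, all harvested after 3 days: untreated control cells, cells given RANKL, and cells given RANKL together with UD, the nucleoside uridine. The dose of UD in these libraries is not given in the sources used here, there was no group given UD without RANKL, and all samples came from 1 cell line.

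DNA methylation of CpG sites is copied after replication by Dnmt1, which Uhrf1 brings to newly made DNA, and is set down at new sites by Dnmt3a and Dnmt3b. TET enzymes oxidise methylated cytosine and so start its removal. PRC2 methylates lysine 27 of histone H3, a mark of silenced genes. Ezh2 and Ezh1 are its alternative catalytic subunits, and Eed and Suz12 are needed for its activity. Ezh2 is typical of dividing cells and Ezh1 of cells that have stopped dividing, and osteoclast precursors leave the cell cycle as they mature.

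The libraries held 15951800 to 19746862 counts, with a median of 19182637. All 6 macrophage markers reached 1 FPKM, with a summed level of 8872 to 9460 FPKM in control, 2370 to 2600 in RANKL and 2069 to 2197 in RANKL + UD libraries. Lyz2 made up most of this sum, at 7818 to 8299 FPKM in control and 1357 to 1521 in RANKL libraries. Of the 6, only Cd68 was higher in RANKL (758 to 830 FPKM) than in control (524 to 599). All 6 osteoclast markers reached 1 FPKM as well, with a summed level of 44.8 to 48.6 FPKM in control, 2619 to 2821 in RANKL and 1653 to 1691 in RANKL + UD libraries. None of the 3 fibroblast, 3 T cell, 3 B cell or 3 epithelial markers reached 1 FPKM in any library. FPKM is the fragment count of a gene scaled to its exonic length and to the mapped fragments of the library. This allows levels to be set side by side between genes, but their order depends on the length used. Differences between groups were tested on the counts with edgeR's quasi-likelihood test over 11995 genes, and a gene was called where the p-value with Benjamini-Hochberg adjustment was under 0.05. That test scales libraries by TMM, a trimmed mean of gene ratios. Its factors were 0.959 to 0.962 in RANKL and 1.01 to 1.03 in the other libraries, so fitted changes between RANKL and another group differ slightly from FPKM ratios. Of the genes called between RANKL and control, 47.5% were higher with TMM and 36.8% with scaling to total counts, and between RANKL + UD and RANKL 48.0% and 66.2%. The labels name replicate biosamples but not separate cultures, so p-values measure only the spread between these libraries. Both marker sums moved with the groups, and their part in the differences below was not tested. In RNA from whole cultures, fewer cells of a type and less RNA per cell cannot be told apart.

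RefSeq promoter sequence (build GRCm38.p6) was available for all 10 genes, as 15 windows from 250 bases before to 50 bases after a transcription start. It is shown for the 3 genes that held a match to a searched form of the E2F site (Uhrf1, Dnmt1 and Ezh2). Dnmt3a, which held no such match and whose RNA changed most with RANKL, is shown beside them. Capitals mark exact matches on either strand to the searched E2F forms and to the CCAAT box (ATTGG). The E2F forms were TTTCGCGC (reverse complement GCGCGAAA) and TTTGGCGC (GCGCCAAA). E2F factors drive genes of DNA synthesis, and CCAAT boxes are bound by NF-Y. Each promoter is written 5′ to 3′ in the sense of its gene, up to base 20 after the start: Uhrf1 at chr17:56304063-56304332 on the plus strand, Ezh2 at chr6:47595011-47595280 on the minus strand and Dnmt3a at chr12:3806730-3806999 on the plus strand. For Dnmt1 the pair of E2F matches are shown with up to 10 bases on each side, at chr9:20952825-20952852 and chr9:20952574-20952600 on the minus strand.
Uhrf1: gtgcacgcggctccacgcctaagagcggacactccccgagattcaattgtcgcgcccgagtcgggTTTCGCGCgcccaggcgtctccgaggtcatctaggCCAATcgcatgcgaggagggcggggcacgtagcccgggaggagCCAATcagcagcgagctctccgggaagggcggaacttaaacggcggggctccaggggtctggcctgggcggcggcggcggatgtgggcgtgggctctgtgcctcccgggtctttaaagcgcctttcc
Ezh2: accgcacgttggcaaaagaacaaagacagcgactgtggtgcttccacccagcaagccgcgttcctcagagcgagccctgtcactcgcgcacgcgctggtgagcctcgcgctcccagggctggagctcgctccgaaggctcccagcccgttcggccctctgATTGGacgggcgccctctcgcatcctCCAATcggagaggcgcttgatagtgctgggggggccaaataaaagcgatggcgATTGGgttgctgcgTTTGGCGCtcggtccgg
Dnmt3a: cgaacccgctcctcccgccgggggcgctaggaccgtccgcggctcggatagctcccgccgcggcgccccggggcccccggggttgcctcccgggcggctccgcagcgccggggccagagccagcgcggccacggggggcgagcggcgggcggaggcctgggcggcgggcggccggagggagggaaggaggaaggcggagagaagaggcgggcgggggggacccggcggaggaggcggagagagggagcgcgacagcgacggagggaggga
Dnmt1 site with the C form: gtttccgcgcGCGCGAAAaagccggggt
Dnmt1 site with the G form: cggggcagcgTTTGGCGCgggctgtgc

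A match to a searched E2F form was present in the windows of 3 of the 10 genes, which were Uhrf1, Dnmt1 and Ezh2. Other forms of the site, such as TTTCCCGC, were not searched, and the Suz12 window held TTTCCCGC. The match lay 185 bases before the start in Uhrf1 and 3 bases after it in Ezh2. In Dnmt1 the matches lay 219 bases before and 33 bases after the most downstream of its 3 annotated starts. Among all 32851 promoter windows of 27025 genes, 0.323% held the C form and 0.514% the G form. By gene the shares were 0.374% and 0.585%, and the share with either form was not counted. A CCAAT box was far more common, in 37.4% of all windows and 41.1% of all genes, and 6 of the 10 genes held one. For 3 of the 10 genes, Dnmt3a, Tet2 and Ezh1, no window held a searched E2F form, a CCAAT box, a CHR element or an AP-1 site. CHR is a cell cycle element (TTTGAA or its reverse complement, in 17.9% of all windows), and the AP-1 site was TGANTCA (7.81%). The share of all genes without any of these motifs was not counted. No window of the 10 genes held the AP-1 site. All 3 Dnmt3a windows held a loose 10-letter NF-kB pattern, as did 50.8% of all windows. The Dnmt3a windows that start at chr12:3806730 and chr12:3806910 overlap and share matches. Of the 10 genes, only Ezh2 and Suz12 held no NF-kB pattern, so it was not particular to Dnmt3a. CCAAT matches on opposite strands can overlap, since CCAATTGG counts as both. CpG, the dinucleotide that these enzymes methylate, had a median count of 7 over all 300-base windows. The 3 Dnmt3a windows held 46, 47 and 18, the first being the one shown in part above, and the Tet2 window held the most of the 10 genes at 57. The counts were 33 in the Uhrf1 window and 31 in the Ezh2 window. A match describes the letters of the window and not binding of a factor.

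The maintenance genes fell with RANKL and were higher again when UD was added. Dnmt1 (ENSMUSG00000004099), which copies methylation onto newly made DNA, lay at 62.5, 62.8 and 65.1 FPKM in control libraries, 40.2, 41.6 and 39.7 in RANKL libraries, and 52.7, 54.3 and 53.8 in RANKL + UD libraries. The 3 groups did not overlap, with RANKL + UD between the other two. Dnmt1 fell by 0.56 on the log2 scale with RANKL (SE 0.044, adjusted p = 5.04e-10), which is 1.48-fold lower. It was 1.25-fold higher in RANKL + UD than in RANKL (log2 fold change 0.32, SE 0.044, adjusted p = 7.53e-06) and stayed below control (log2 fold change -0.24, adjusted p = 7.4e-05).

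Uhrf1 (ENSMUSG00000001228), which recognises DNA methylated on a single strand and recruits Dnmt1, had 30.8, 32.1 and 31.0 FPKM in control, 20.8, 22.1 and 20.4 in RANKL, and 30.0, 33.0 and 31.7 in RANKL + UD libraries. Each RANKL library lay below all others, and the RANKL + UD libraries spanned the control range. The fitted difference was 1.40-fold lower in RANKL than in control (log2 fold change -0.48, SE 0.0524, adjusted p = 8.02e-08) and 1.41-fold higher in RANKL + UD than in RANKL (0.49, SE 0.0524, adjusted p = 2.23e-07). Between RANKL + UD and control no difference in Uhrf1 was called, with a log2 fold change of 0.01 and a 95% interval of -0.10 to 0.12. Uhrf1 FPKM per Dnmt1 FPKM was 0.493 ± 0.0178 in control, 0.520 ± 0.00922 in RANKL and 0.588 ± 0.0192 in RANKL + UD (SD, n = 3).

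The de novo enzyme Dnmt3a went the other way. Dnmt3a (ENSMUSG00000020661), which methylates sites that were unmethylated before, lay at 19.2, 20.1 and 18.2 FPKM in control libraries, 51.0, 50.9 and 47.3 in RANKL libraries, and 45.6, 47.8 and 48.4 in RANKL + UD libraries. All libraries that received RANKL lay above all control libraries, while those with and without UD overlapped. Dnmt3a rose 2.76-fold with RANKL (log2 fold change 1.46, SE 0.0498, adjusted p = 3.91e-16) and was 2.47-fold above control in RANKL + UD (log2 fold change 1.31, adjusted p = 2.95e-15). Its RANKL difference was the largest among the 9 genes tested. RANKL + UD was 1.12-fold below RANKL (log2 fold change -0.16, SE 0.0484, adjusted p = 0.0131). That call was lost in the fits without RANKL replicate 1, without RANKL replicate 2 and without RANKL + UD replicate 1 (log2 fold change -0.14 each), and with total counts in place of TMM (-0.07). An antisense gene at the locus, Dnmt3aos, held 0.215% of the Dnmt3a counts over the 9 libraries and at most 0.334% in any library.

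Dnmt3b (ENSMUSG00000027478), the second de novo enzyme, was low but detected in every library (31 to 62 counts), at 0.56, 0.52 and 0.61 FPKM in control, 0.31, 0.46 and 0.49 in RANKL, and 0.42, 0.59 and 0.70 in RANKL + UD libraries. The RANKL libraries lay below the control libraries, and RANKL + UD overlapped both. It did not reach 1 FPKM in any library and was left out of the test, so 9 of the 10 genes were tested. With no filter its log2 fold change was -0.32 between RANKL and control (95% interval -0.86 to 0.21) and 0.36 between RANKL + UD and RANKL (95% interval -0.18 to 0.89), and neither was called.

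With Dnmt1 falling and Dnmt3a rising, the makeup of the methyltransferase RNA changed. Dnmt3a made up 23.4%, 24.0% and 21.6% of the summed FPKM of the 3 methyltransferases in control libraries, 55.7%, 54.7% and 54.1% in RANKL libraries, and 46.2%, 46.6% and 47.1% in RANKL + UD libraries. Dnmt1 was the most abundant of all 10 genes in control, and Dnmt3a and Suz12 headed the order in RANKL with overlapping ranges. There were 0.302 ± 0.0208 Dnmt3a FPKM per Dnmt1 FPKM in control, 1.23 ± 0.0391 in RANKL and 0.883 ± 0.0171 in RANKL + UD (SD, n = 3). Dnmt3a FPKM thus exceeded Dnmt1 FPKM in the RANKL group alone. That order and these shares rest on the exonic lengths used, 16642 bases for Dnmt3a and 7377 for Dnmt1.

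**Figure D1:**
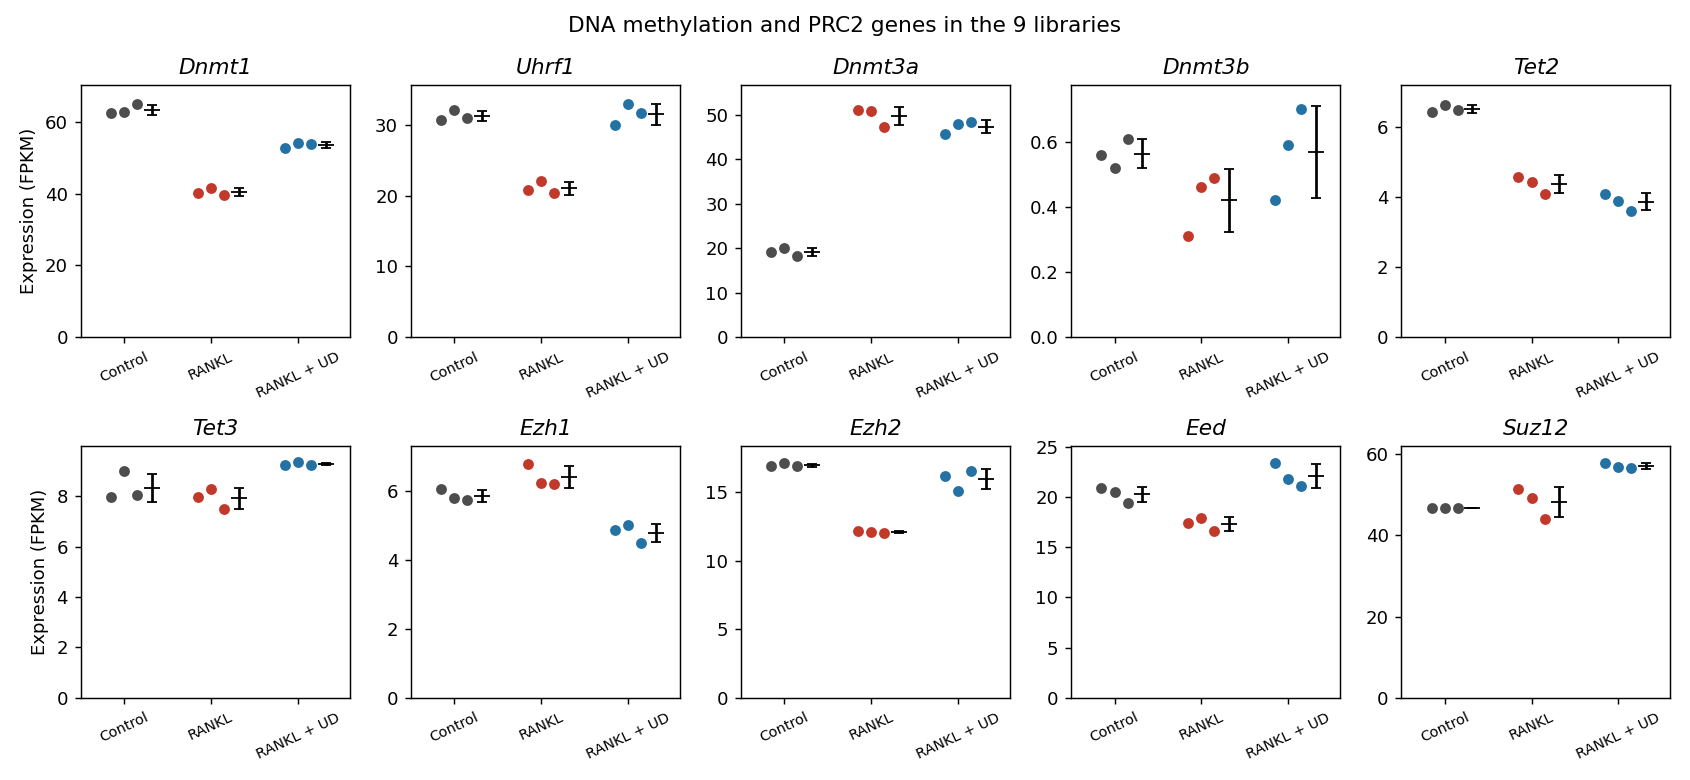
Expression of the 10 genes in FPKM (vertical axes from 0, a scale for each gene) in the 3 control, 3 RANKL and 3 RANKL + UD libraries, with the mean and SD beside the points. Dnmt1, Uhrf1 and Ezh2 are lowest in RANKL, Dnmt3a is at 18.2 to 20.1 FPKM in control and at 45.6 to 51.0 in all libraries that received RANKL, and Dnmt3b stays under 1 FPKM.

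Of the TET enzymes, Tet2 fell in step with treatment and Tet3 changed little. Tet2 (ENSMUSG00000040943), a demethylating enzyme of blood cells, lay at 6.41, 6.63 and 6.46 FPKM in control, 4.57, 4.43 and 4.09 in RANKL, and 4.08, 3.88 and 3.60 in RANKL + UD libraries. The groups did not overlap, although the highest RANKL + UD and the lowest RANKL library were nearly equal. Tet2 was 1.40-fold lower in RANKL than in control (log2 fold change -0.49, SE 0.0598, adjusted p = 5.02e-07) and 1.68-fold lower in RANKL + UD than in control (log2 fold change -0.75, adjusted p = 9.21e-10). It was 1.20-fold lower in RANKL + UD than in RANKL (log2 fold change -0.26, SE 0.0613, adjusted p = 0.00178). That last call was not made by limma on log2(FPKM + 1) or log2(FPKM + 0.1), where the log2 differences were -0.14 and -0.18. Unlike Dnmt1, Uhrf1 and Ezh2, Tet2 moved further from control when UD was added.

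Tet3 (ENSMUSG00000034832), a related enzyme that also acts in the early embryo, lay at 7.96, 8.98 and 8.05 FPKM in control, 7.96, 8.28 and 7.48 in RANKL, and 9.24, 9.34 and 9.25 in RANKL + UD libraries. Control and RANKL overlapped, and RANKL + UD lay above both. Between RANKL and control no difference was called (log2 fold change 0.01, 95% interval -0.10 to 0.12), and the sign turned with total counts (-0.077) and in 3 of 9 fits that each left out 1 library. Tet3 was 1.11-fold higher in RANKL + UD than in RANKL (log2 fold change 0.14, SE 0.0542, adjusted p = 0.0398) and 1.11-fold higher than in control (log2 fold change 0.16, adjusted p = 0.0197). The call against RANKL was lost in 5 of 9 fits that each left out 1 library, namely RANKL replicate 1 or 3 or any RANKL + UD replicate, with log2 fold changes of 0.11 to 0.18 over the 9 fits, and with RLE size factors, no expression filter or DESeq2. The call against control was lost without control replicate 1 or 3 or RANKL + UD replicate 2, with log2 fold changes of 0.13 to 0.21 over the 9 fits, and by limma. Tet3 FPKM per Tet2 FPKM was 1.28 ± 0.0638 in control, 1.81 ± 0.0651 in RANKL and 2.41 ± 0.152 in RANKL + UD (SD, n = 3).

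The 2 catalytic subunits of PRC2 moved in opposite directions. Ezh2 (ENSMUSG00000029687), the more active H3K27 methyltransferase, lay at 16.9, 17.1 and 16.9 FPKM in control libraries, 12.2, 12.1 and 12.0 in RANKL libraries, and 16.2, 15.1 and 16.6 in RANKL + UD libraries. RANKL lay below the other groups, and RANKL + UD lay just below control without overlap. Ezh2 was 1.32-fold lower in RANKL than in control (log2 fold change -0.40, SE 0.0522, adjusted p = 1.08e-06). It was 1.24-fold higher in RANKL + UD than in RANKL (0.31, SE 0.0523, adjusted p = 6.36e-05). The difference between RANKL + UD and control was not called (log2 fold change -0.09, 95% interval -0.20 to 0.02).

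Ezh1 (ENSMUSG00000006920), the catalytic subunit of less active complexes in resting cells, lay at 6.07, 5.80 and 5.74 FPKM in control, 6.79, 6.25 and 6.21 in RANKL, and 4.87, 5.01 and 4.49 in RANKL + UD libraries. All RANKL libraries lay above control, and all RANKL + UD libraries lay below it. Ezh1 was 1.16-fold higher in RANKL than in control (log2 fold change 0.22, SE 0.0717, adjusted p = 0.0139). This call was lost without RANKL replicate 1 (log2 fold change 0.17) and with total counts (0.13). The difference with UD was larger, at 1.42-fold lower in RANKL + UD than in RANKL (log2 fold change -0.51, SE 0.0726, adjusted p = 1.12e-05) and 1.22-fold lower than in control (log2 fold change -0.29, adjusted p = 0.00201).

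The balance of the catalytic subunits can be read within each library, where the scaling of libraries cancels. Ezh1 FPKM per Ezh2 FPKM was 0.359, 0.339 and 0.339 in control, 0.559, 0.517 and 0.516 in RANKL, and 0.301, 0.331 and 0.271 in RANKL + UD libraries. The ratio was highest in all RANKL libraries, and the RANKL + UD libraries were below the control libraries. The mean log2 ratio was 0.62 higher in RANKL than in control, 0.82 lower in RANKL + UD than in RANKL and 0.20 lower in RANKL + UD than in control. The exact permutation test, two-sided, gave p = 0.1 for each of the 3 comparisons, also after Benjamini-Hochberg adjustment over them, which is the smallest value that 3 against 3 libraries allow. Ezh2 RNA stayed above Ezh1 RNA per length in every library.

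**Figure D2:**
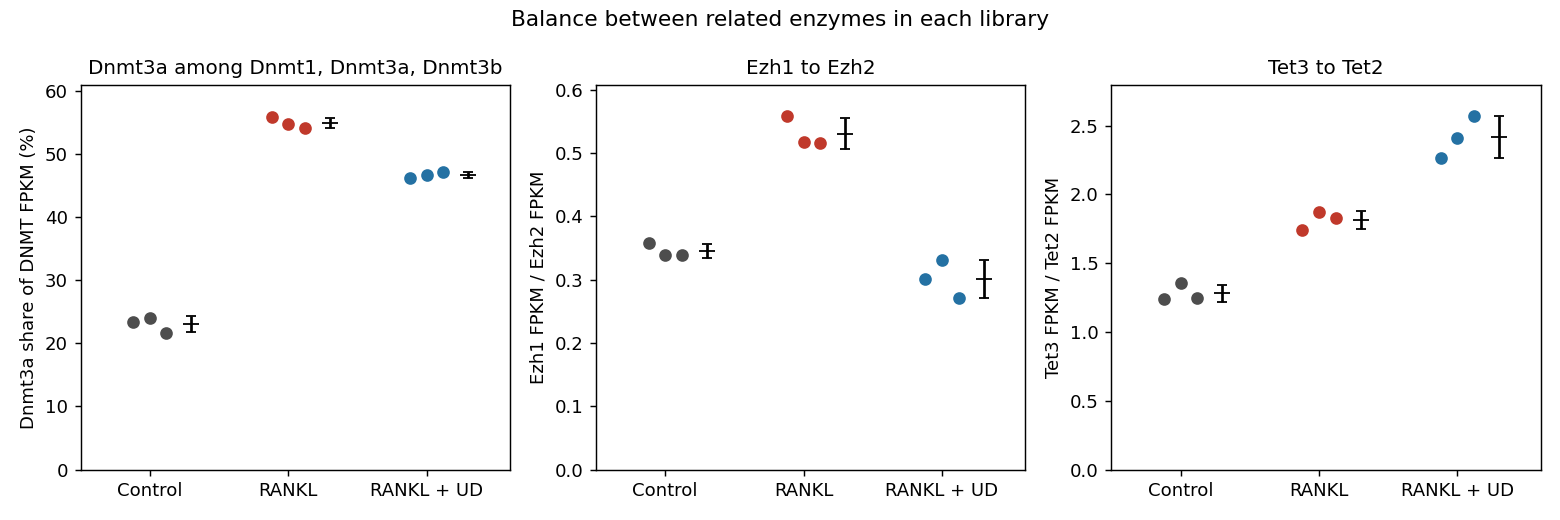
Ratios within each library (points), with the mean and SD of each group, on axes that start at 0: the share of Dnmt3a in the summed FPKM of the 3 DNA methyltransferases in percent, Ezh1 FPKM divided by Ezh2 FPKM, and Tet3 FPKM divided by Tet2 FPKM. The Dnmt3a share is 21.6% to 24.0% in control and 54.1% to 55.7% in RANKL, the Ezh1 to Ezh2 ratio is highest in RANKL, and the Tet3 to Tet2 ratio is highest in RANKL + UD.

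The core subunits rose when UD was added to RANKL, and their differences between RANKL and control were small. Eed (ENSMUSG00000030619), which binds the H3K27 mark and stimulates the enzyme, lay at 20.9, 20.5 and 19.4 FPKM in control, 17.4, 17.9 and 16.6 in RANKL, and 23.4, 21.8 and 21.1 in RANKL + UD libraries. The groups did not overlap in FPKM. Eed was 1.20-fold higher in RANKL + UD than in RANKL (log2 fold change 0.27, SE 0.0596, adjusted p = 0.0013). The RANKL difference from control missed the threshold (log2 fold change -0.14, 95% interval -0.26 to -0.01, adjusted p = 0.0522). It passed as a fall with total counts (-0.23) and without control replicate 3 (-0.17). RANKL + UD against control was not called (log2 fold change 0.13, adjusted p = 0.0806). The overlapping gene Gm45120 held 0.755% of the Eed counts over the 9 libraries and at most 1.25% in any library.

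Suz12 (ENSMUSG00000017548), the scaffold on which PRC2 is built, lay at 46.8, 46.8 and 46.8 FPKM in control, 51.3, 49.2 and 44.0 in RANKL, and 57.9, 56.9 and 56.5 in RANKL + UD libraries. The RANKL libraries spread on both sides of the control libraries, and RANKL + UD lay above both groups. Suz12 was 1.22-fold higher in RANKL + UD than in control (log2 fold change 0.29, SE 0.0524, adjusted p = 8.57e-05) and 1.12-fold higher than in RANKL (0.16, SE 0.0522, adjusted p = 0.0203). The call against RANKL was lost without RANKL replicate 3 (0.10) or RANKL + UD replicate 1 (0.14). The RANKL difference from control, at 1.09-fold higher (0.13, SE 0.0525, adjusted p = 0.0401), depended on single libraries. It was lost in 7 of 9 fits that each left out 1 library (any control replicate, RANKL replicate 1 or 2, or RANKL + UD replicate 2 or 3), which gave log2 fold changes of 0.08 to 0.19, and with total counts (0.04).

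Counted together, 3 of the 9 tested genes were higher in RANKL than in control, where 27.3% of all tested genes were higher, and 4 were lower, where 30.2% of all genes were lower. The median log2 fold change of the 9 was -0.14, against -0.03 over all tested genes. With UD added to RANKL, 6 of the 9 rose and 3 fell relative to RANKL, with backgrounds of 18.6% and 20.2%, and the median was 0.16 against 0.005. Between RANKL + UD and control, 3 genes were higher and 3 lower, with backgrounds of 26.7% and 27.3%. The comparisons share libraries, so the values of a gene in them are not independent. Between RANKL and control the 5 calls for Dnmt1, Dnmt3a, Uhrf1, Tet2 and Ezh2 were kept under all 18 alternative settings tried. Between RANKL + UD and RANKL the 5 calls kept were those for Dnmt1, Uhrf1, Ezh1, Ezh2 and Eed, and between RANKL + UD and control those for Dnmt1, Dnmt3a, Tet2, Ezh1 and Suz12.

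**Figure D3:**
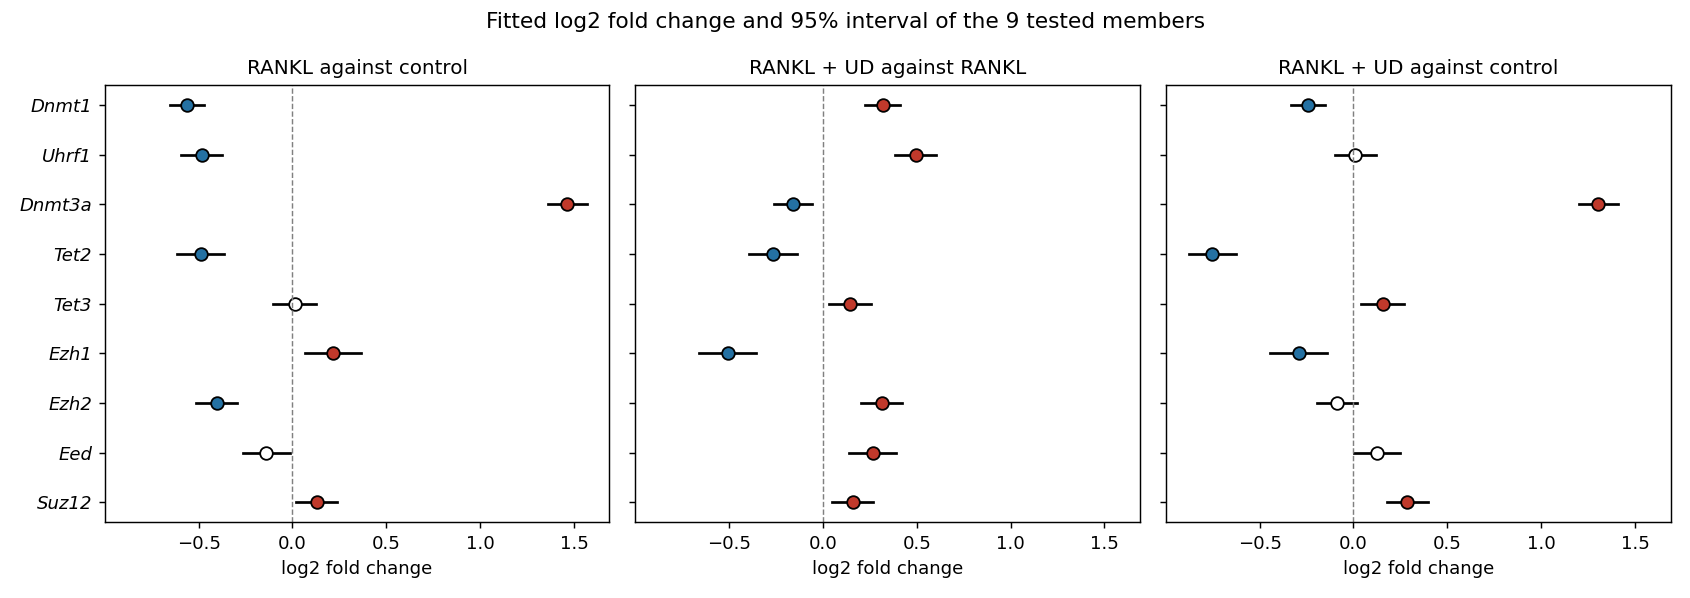
Fitted log2 fold change (horizontal axis) and 95% interval of the 9 tested genes in the 3 comparisons, with filled points for genes called higher (red) or lower (blue) and open points for genes not called. Dnmt3a stands at 1.46 and 1.31 against control, and Ezh1 and Ezh2 lie on opposite sides of 0 in the comparisons of RANKL with control and of RANKL + UD with RANKL.

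Genes of DNA replication and mitosis changed in the same 2 comparisons. Of the 22 in a list chosen for this purpose, 20 were lower and 1 higher in RANKL than in control (median log2 fold change -0.53, against -0.03 over all genes). Among all tested genes 30.2% were lower and 27.3% higher. In RANKL + UD, 21 of the 22 were above RANKL and 1 was not called (median 0.63, against 0.005), where 18.6% of all tested genes were higher. Against control, RANKL + UD had 6 of the 22 higher, 5 lower and 11 not called, near the all-gene shares of 26.7% higher and 27.3% lower. The summed level of the list was 729.6 to 756.2 FPKM in control, 467.4 to 476.9 in RANKL and 733.0 to 763.3 in RANKL + UD libraries. These values moved with those of Dnmt1, Uhrf1 and Ezh2, and their part in the change of those genes was not tested. E2f2, an activator of S phase genes, went from 8.28 ± 1.27 FPKM in control to 1.61 ± 0.211 in RANKL (SD, n = 3; log2 fold change -2.28, adjusted p = 1.77e-12). In RANKL + UD it stayed low, at 2.37 ± 0.262 FPKM, which was below control (log2 fold change -1.81, adjusted p = 5.53e-11) and above RANKL (0.47, adjusted p = 0.0101). Rrm2, a subunit of ribonucleotide reductase, was at 19.5 ± 1.23 FPKM in RANKL and 40.5 ± 1.55 in RANKL + UD (log2 fold change 0.97, adjusted p = 4.09e-10). Cdt1, which licenses replication origins, was the gene called higher in RANKL (log2 fold change 0.29, adjusted p = 0.0132).

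Accessory subunits steer PRC2 to its targets. Of 9, 2 were higher and 3 lower in RANKL than in control (median log2 fold change -0.09, against -0.03 over all genes), where 27.3% of all tested genes were higher and 30.2% lower. With UD added 3 rose and 1 fell relative to RANKL (median 0.11, against 0.005), where 18.6% of all tested genes rose and 20.2% fell. Jarid2, which helps PRC2 bind chromatin, rose from 7.76 ± 0.161 FPKM in control to 15.8 ± 0.786 in RANKL (log2 fold change 1.11, adjusted p = 2.78e-13). It was lower again in RANKL + UD, at 10.3 ± 0.478 FPKM (log2 fold change -0.70, adjusted p = 3.15e-09). Phf19, a Polycomb-like subunit, went the other way, with log2 fold changes of -0.40 (adjusted p = 0.00291) and 0.58 (adjusted p = 0.000178).

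PRC1 places ubiquitin on histone H2A and often acts at the same genes as PRC2. Of its 20 genes, 18 were tested, of which 4 were higher and 10 lower in RANKL than in control (median -0.20, against all-gene shares of 27.3% and 30.2%), and 7 rose and 3 fell when UD was added to RANKL (median 0.01, against 18.6% and 20.2%). Bmi1, which activates the PRC1 ubiquitin ligase, was at 19.9 ± 0.486 FPKM in control, 34.2 ± 0.756 in RANKL and 39.7 ± 1.33 in RANKL + UD, and rose with RANKL (log2 fold change 0.87, adjusted p = 3.81e-12). Cbx6, a reader of the H3K27 mark, fell by 0.86 with RANKL (adjusted p = 3.63e-09) and was 0.55 higher in RANKL + UD than in RANKL (adjusted p = 9.16e-06), both on the log2 scale. A list of enzymes that remove the Polycomb marks and their cofactors had 5 tested genes: Kdm6a, Kdm6b, Bap1, Asxl1 and Asxl2. Kdm6b, an H3K27 demethylase, had a log2 fold change of 0.51 in RANKL against control (adjusted p = 0.000243). In RANKL + UD against RANKL its log2 fold change was -0.63 (adjusted p = 5.94e-05). In that list 1 gene was higher and 2, the cofactor genes Asxl1 and Asxl2, were lower in the first comparison (median -0.10, all-gene shares 27.3% and 30.2%). In the second, 1 was higher and 1 lower (median -0.05, all-gene shares 18.6% and 20.2%).

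Of 11 other genes of DNA methylation and demethylation, 8 were tested, and 2 were higher and 5 lower in RANKL than in control (median -0.18, all-gene shares 27.3% and 30.2%). In RANKL + UD, 4 were above RANKL and 4 were not called (median 0.14, all-gene share higher 18.6%). Hells, a chromatin remodeller needed for normal methylation, was at 18.8 ± 0.301 FPKM in control, 14.9 ± 0.959 in RANKL and 27.1 ± 0.433 in RANKL + UD, with a log2 fold change of 0.77 for the last step (adjusted p = 3.94e-10). Idh1, which makes the 2-oxoglutarate that TET enzymes use, was at 128.3 ± 3.18 FPKM in control, 70.0 ± 0.555 in RANKL and 69.9 ± 1.66 in RANKL + UD, and fell with RANKL (log2 fold change -0.79, adjusted p = 2.49e-12). Uhrf2, a relative of Uhrf1, rose with RANKL, opposite to Uhrf1 (log2 fold change 0.45, adjusted p = 6.22e-07).

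Among 8 readers of methylated CpG, 2 were higher and 3 lower in RANKL than in control (median 0.06), and 2 rose and 3 fell when UD was added to RANKL (median 0.12). The all-gene shares were 27.3% higher and 30.2% lower in the first comparison and 18.6% and 20.2% in the second. Mbd4, a DNA glycosylase, had log2 fold changes of -0.79 (adjusted p = 2.48e-06) and 0.44 (adjusted p = 0.00316) in these comparisons. A further 5 genes of the Mat2 and Ahcy families were listed for the metabolism of S-adenosylmethionine, the methyl donor of DNMTs and PRC2. Of these, 2 (Ahcy and Ahcyl1) were higher in RANKL than in control and 3, among them Mat2a, were not called. When UD was added, 2 rose and 2 fell, with the same all-gene shares. Mat2a, which makes S-adenosylmethionine, was at 63.2 ± 1.04 FPKM in RANKL and 99.9 ± 0.939 in RANKL + UD (log2 fold change 0.57, adjusted p = 3.2e-09).

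**Figure D4:**
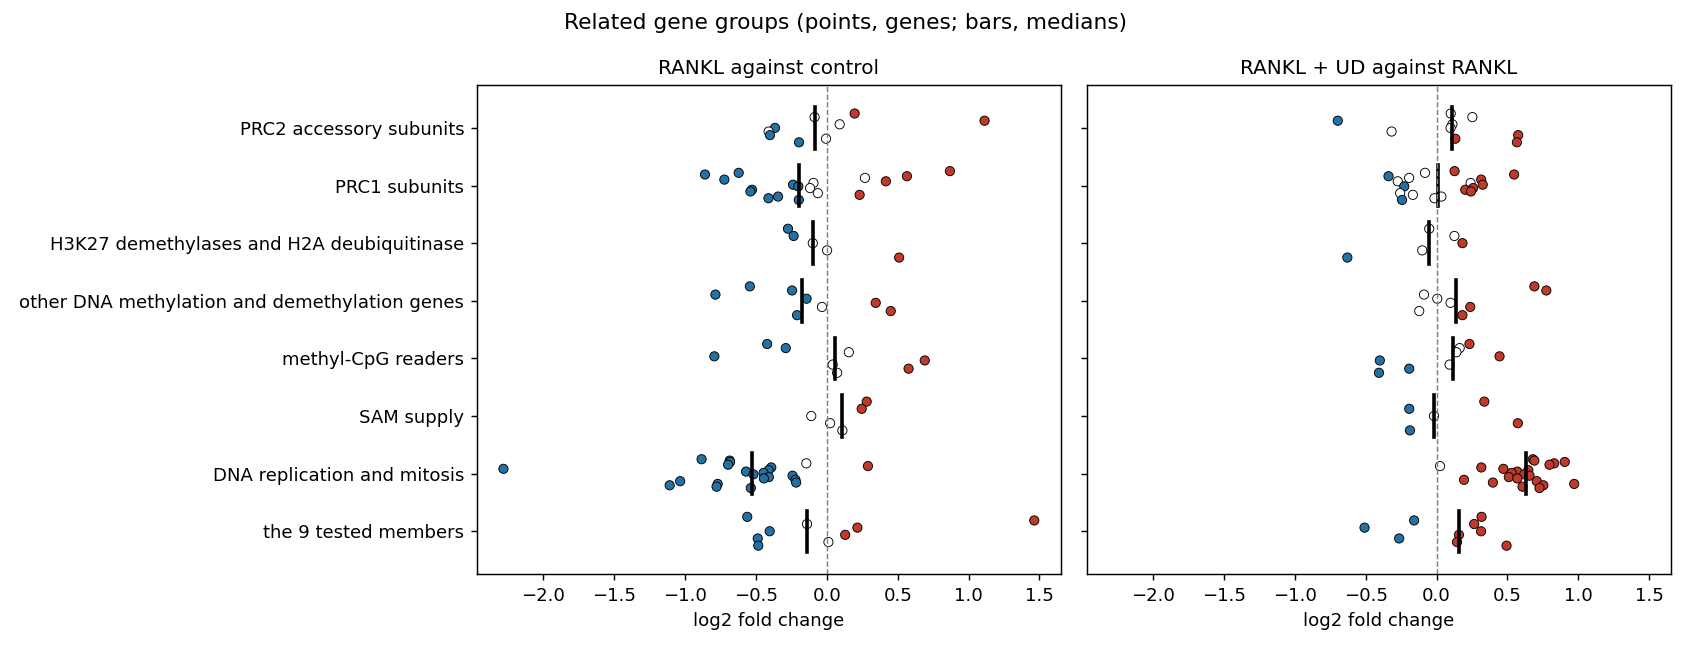
Fitted log2 fold change of each gene (points) and the median (bars) in 7 lists of related genes and in the 9 tested genes, for RANKL against control and RANKL + UD against RANKL, with red for called higher, blue for called lower and open points for not called. The DNA replication and mitosis list has medians of -0.53 and 0.63, and the other lists lie closer to 0.

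The genes whose levels ran most closely with each tested gene over the 9 libraries were found from Pearson's r of log2(FPKM + 1). The values are a description, since the libraries fall in 3 groups. For Dnmt1 these were Pbx3 (r = 0.997) and the mitotic kinesin Kif11 (r = 0.996), and for Uhrf1 the mitotic kinase Cdk1 (r = 0.987) and Klf10 (r = 0.986). Dnmt3a ran with the chemokine receptor Ccr1 and the transferrin receptor Tfrc (r = 0.998 each), whose levels rose from 5.64 and 27.6 FPKM in control to 82.4 and 124.8 in RANKL. Ezh2 ran with Agmo (r = 0.994), Ezh1 with Aldh1l2 (r = 0.989), Tet2 with Wasf2 (r = 0.995), Tet3 with 2700097O09Rik (r = 0.980), Eed with Nufip2 (r = 0.985) and Suz12 with Dnm1l (r = 0.993).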

How the data were processed

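Poly(A) RNA of RAW264.7 cells was sequenced in 9 libraries on an Illumina platform, per the labels. The authors deposited 1 table of raw counts and FPKM per gene, with 18 value columns. Of these, 12 matched a library by name, and 6 named model were taken as RANKL, since the study also calls that group model. The aligner and counter are not given in the sources used here. The labels name mm10, but the start positions of the 10 genes in the table all differ from GRCm38, so its coordinates were not used. FPKM as deposited was recomputed from the counts, lengths and totals for 100% of genes within 0.0051.

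Genes that reached an FPKM of 1 in 3 or more libraries were kept (11995). Counts of all 9 libraries were fitted in 1 model with edgeR 4.0.16 (TMM, quasi-likelihood) in R 4.3.3, with Benjamini-Hochberg adjustment over all tested genes. DESeq2 1.42.0 and limma 3.58.1 were alternatives. The pseudocount for FPKM was 1, or 0.1 as an alternative. All 10 genes were named. Of each list, the called genes with the largest rise and fall were candidates, as were the 2 genes closest in r. The genes and lists were chosen with earlier results of these data known. Replicates differed beyond counting noise (chi-square per degree of freedom 2.90 to 8.89 over 9 pairs).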

Additional observations from a re-analysis of the deposited data

How the results depend on the processing

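The 27 fold changes of the tested genes (9 genes, 3 comparisons) were recomputed under 18 alternatives. Of the 486 values, 437 kept direction and side of the threshold, 37 lost a call, 5 gained one and 7 changed sign without a call before or after. The sign changes were Tet3 in RANKL against control (-0.077 with total counts, -0.066 and -0.073 by limma with pseudocounts of 1 and 0.1, -0.017 without control replicate 1, -0.013 without control replicate 3 and -0.021 without RANKL replicate 2, over a range of -0.021 to 0.066 for single libraries left out) and Uhrf1 in RANKL + UD against control (-0.019 without RANKL + UD replicate 2, over a range of -0.019 to 0.044). The cause was not tested.

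Total counts and limma on FPKM, neither of which uses TMM, ended the calls for Suz12 and Ezh1 in RANKL against control and for Dnmt3a in RANKL + UD against RANKL, and gave a call for Eed. Limma, but not total counts, also ended the call for Tet2 in RANKL + UD against RANKL. The number of genes called stayed within 1.5 times in every setting: leaving out 1 library gave 6310 to 6882, 3947 to 5065 and 5859 to 6594 for RANKL against control, RANKL + UD against RANKL and RANKL + UD against control. The log2 Ezh1 to Ezh2 ratio differences ranged over 0.58 to 0.65, -0.89 to -0.75 and -0.27 to -0.13.

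Deviations of same-numbered libraries were at most weakly correlated (r from -0.03 to 0.0973 over 9 pairs). The highest values were those of replicate 1, at 0.0973, 0.0893 and 0.0746. Of the 9 libraries, 4 were closest to their own number in both other groups. With 3 libraries per group, these values cannot settle whether the numbers mark pairs. With a replicate block 7040, 4865 and 6602 genes were called, against 6906, 4651 and 6473, and Eed passed the threshold in RANKL against control (-0.14), with no other call of the 9 genes changed. Depth limits Dnmt3b, with 31 to 62 counts per library.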
